A study of Mus musculus with 6 samples.

Results

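LIM-homeodomain genes encode transcription factors that carry a pair of LIM zinc-finger domains beside a DNA-binding homeodomain. The members here are Lhx1, Lhx2, Lhx5, Lhx6, Lhx8, Lhx9, Isl1, Isl2, Lmx1a and Lmx1b, read in the mandibular arch of mouse embryos with and without Tbx1. Of the 10 members, 9 were measured by a probe set whose platform annotation names that gene alone, among 19938 genes measured this way. Each of the 9 had 1 such probe set, so the choice of the brightest did not come into play, and 0 of the probe sets with several symbols held a member. The expression of Lmx1a is not analysed here. The family was chosen by name, and it was selected on the changes of Lhx2 and Isl1 between the genotypes, which were already known, so the changes of the members and their counts below are a description of the fit across all genes and no independent test.

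The study compared Tbx1+/+ embryos (wild type, 3 arrays) with Tbx1-/- embryos (Tbx1 null, 3 arrays) of strain C57BL/6 at embryonic day 9.5 (E9.5). Tbx1 is a T-box transcription factor gene active in the pharyngeal region, and the question is what its loss does to arch transcripts. The tissue is the dissected mandibular part of the first pharyngeal arch, which forms the lower jaw and the muscles that move it. RNA came from pooled arches, with 3 embryos to a genotype. It is not said whether every array had its own pool, so the p-values reflect array-to-array spread, which may be technical. The labels do not describe the null allele.

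LIM domains bind the cofactor LDB1, which joins LIM-homeodomain factors into larger complexes at enhancers, and small LIM-only (LMO) proteins compete for it. In the head, Lhx2 and Isl1 are known from the pharyngeal mesoderm that makes jaw muscle, Isl1 also from the second heart field and the arch epithelium, and Lhx6 and Lhx8 from the neural crest mesenchyme under the oral ectoderm. Isl2, Lhx1, Lhx5, Lmx1a and Lmx1b are best known from neurons, the roof plate and other tissues.

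Promoters from RefSeq (build GRCm38.p6; 250 bases before and 50 after a start) were at hand for 9 members, with 12 entries; these include Lmx1a, and no entry of Lhx5 was used. Those of Lhx2, Isl1 and Lhx8 are shown because these members had the largest differences between genotypes. Lhx2 has entries for a pair of starts on the plus strand of chromosome 2, at chr2:38339031-38339330 and chr2:38351058-38351357. Isl1 lies on the minus strand at chr13:116309639-116309938 and Lhx8 on the minus strand at chr3:154330511-154330810. Capitals mark an E-box or a CCAAT box.
Lhx2, upstream start: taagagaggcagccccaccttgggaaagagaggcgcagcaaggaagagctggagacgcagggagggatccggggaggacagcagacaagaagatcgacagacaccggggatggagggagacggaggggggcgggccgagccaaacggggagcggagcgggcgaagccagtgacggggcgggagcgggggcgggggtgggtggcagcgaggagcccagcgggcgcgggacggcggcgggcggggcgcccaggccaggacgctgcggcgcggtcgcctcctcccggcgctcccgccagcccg
Lhx2, downstream start: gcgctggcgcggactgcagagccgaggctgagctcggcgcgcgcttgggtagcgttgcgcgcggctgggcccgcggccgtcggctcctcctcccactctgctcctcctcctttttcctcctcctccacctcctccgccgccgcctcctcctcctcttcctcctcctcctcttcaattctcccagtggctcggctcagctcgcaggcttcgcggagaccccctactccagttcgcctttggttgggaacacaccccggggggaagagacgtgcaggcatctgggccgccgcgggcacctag
Isl1: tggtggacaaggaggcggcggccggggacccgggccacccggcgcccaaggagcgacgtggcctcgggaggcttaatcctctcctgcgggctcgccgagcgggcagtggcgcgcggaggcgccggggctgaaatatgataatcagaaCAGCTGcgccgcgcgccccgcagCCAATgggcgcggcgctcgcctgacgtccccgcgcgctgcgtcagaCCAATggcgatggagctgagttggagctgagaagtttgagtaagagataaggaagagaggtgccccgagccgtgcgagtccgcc
Lhx8: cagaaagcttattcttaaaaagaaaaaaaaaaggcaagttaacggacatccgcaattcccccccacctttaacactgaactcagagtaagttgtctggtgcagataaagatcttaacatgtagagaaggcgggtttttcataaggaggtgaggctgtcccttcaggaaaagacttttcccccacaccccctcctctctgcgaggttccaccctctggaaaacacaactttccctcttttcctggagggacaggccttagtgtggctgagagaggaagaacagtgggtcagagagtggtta
The letters GGTGTGA, the core of the T-box site, were searched on both strands and were in 0 of the 12 member promoters, against 3.98% of all 32851 promoters in the table. TAATTA, a homeodomain core, was likewise in 0 of 12 (5.29% of all). The E-box CAGCTG was in 2 of 12 (16.3% of all), in the Isl1 promoter and in 1 of the 3 Lhx6 promoters. The CCAAT box was in 7 of 12 (37.4% of all), with 2 matches in the Isl1 promoter, none of which overlaps the E-box. These are matches of letters in a short window and say nothing of sites elsewhere.

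The values are log2 expression levels made by the authors with RMA, with array medians from 7.98 to 8.04. The arch mesenchyme markers, 8 of 8 measured, had log2 levels from 10.22 to 12.95 on every array, all above the array medians. Tbx1 itself had log2 levels of 11.64, 11.36 and 11.31 on the wild-type arrays and 9.48, 9.39 and 9.63 on the null arrays, which fits the labels. At a limma adjusted p of 0.05 the fit called 32 genes, 17 higher and 15 lower in Tbx1 null. Leaving out an array reduced the 32 to 13, 3 or 20 (wild-type arrays 1 to 3) and to 3, 3 or 10 (null arrays 1 to 3). The split became 12 and 22 after another quantile normalisation and 16 and 30 after centring each array on its median. Wild type replicate 1 stood apart in some marker lists. It had the highest summed neuron markers of the 6 arrays (2388, against 1575 to 1871 on the others, as sums of linear values) and the highest summed migratory crest and glial markers (8111, against 5411 to 6369).

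Of the 9 measured members 1 was called, Lhx2, which was lower, against 0.0752% of all genes called lower, 0.0853% called higher and 0.16% called either way. At a nominal p under 0.05, before adjustment, there were 3 members (Lhx2, Isl1 and Lhx8), against 9.44% of all genes. The arrays of the genotypes did not overlap for 2 of 9, Lhx2 and Isl1, against 15.4% of all genes. The median log2 change was -0.0062 over the 9 members and -0.0061 over all genes tested, and 4 members had a change above 0 and 5 below. The filter on low values, tried as an alternative, left out genes below the first quartile of mean log2 level (6.81); 8 members passed it and Lhx5 did not.

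**Figure D1:**
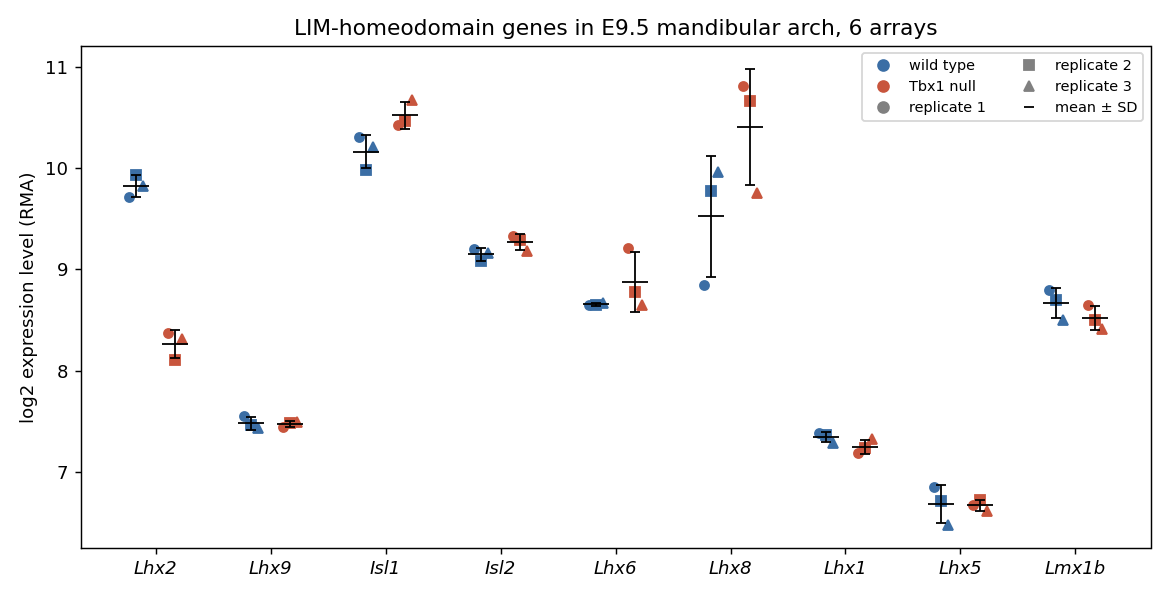
Log2 expression level (vertical axis, RMA) of the 9 measured LIM-homeodomain genes on each array, wild type in blue and Tbx1 null in red; marker shapes give the replicate, and black bars the mean ± SD of 3 arrays. The Lhx2 arrays lie between 9.72 and 9.94 in wild type and between 8.10 and 8.37 in Tbx1 null, while those of Lhx8 spread from 8.84 to 10.81. Levels of different genes come from different probes and are not to be compared.

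Lhx2 and Lhx9 are the closely related pair of the family. Lhx2 (probe set 10471833, Entrez gene 16870) had log2 levels of 9.72, 9.94 and 9.82 on wild type replicates 1, 2 and 3. On Tbx1 null replicates 1, 2 and 3 its log2 levels were 8.37, 8.10 and 8.31. All null arrays lay below all wild-type arrays, with 1.35 between the nearest of them. The SDs were 0.11 in wild type and 0.14 in Tbx1 null, above the median SD of 0.0728 over all genes. Lhx2 fell by 1.56 on the log2 scale (95% confidence interval -1.76 to -1.37), which is 2.96-fold lower (limma adjusted p = 0.000784 in the fit across all genes). By size its change ranked 2 among the 19938 genes, after Tbx1. With any 1 array left out the log2 change lay between -1.62 and -1.48 and the limma adjusted p between 0.00326 and 0.0161. In this bulk tissue, fewer cells with the transcript and less transcript per cell cannot be told apart.

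Lhx9, which is known from the developing gonad, limb and brain, had log2 levels of 7.55, 7.46 and 7.43 in wild type and 7.44, 7.48 and 7.50 in Tbx1 null. The arrays of the genotypes overlapped fully. The mean log2 level of the Lhx9 probe set, 7.47, was below every array median (7.98 to 8.04), so a change of the transcript may be understated. Its log2 change was -0.0062 (95% confidence interval -0.12 to 0.11). For the reading of this probe set, that interval leaves out a change of the size of Lhx2. The sign of this small value turned without wild type replicate 1 (0.028) and without Tbx1 null replicate 1 (0.0095), and it was -0.030 without wild type replicate 3, -0.016 without wild type replicate 2, -0.019 without Tbx1 null replicate 3 and -0.0095 without Tbx1 null replicate 2.

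The nearest measured genes on either side of Lhx2 in the RefSeq gene order were read to see whether its neighbourhood moved too. Between them and Lhx2 lie 1 annotated gene on the side of Dennd1a and 4 on that of Nek6, which are not analysed here. Dennd1a, which encodes a regulator of Rab GTPases, had a log2 change of 0.0067 (95% confidence interval -0.12 to 0.13) with overlapping arrays. Nek6, a kinase gene of the cell cycle on the other side, had a log2 change of -0.12 (limma adjusted p = 0.437), with arrays that did not overlap. Neither was called, and neither interval reaches the change of Lhx2, since that of Nek6 runs from -0.22 to -0.02.

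The genes whose levels followed Lhx2 most closely over the 6 arrays were Slit1, Tbx1, Lrrn1 and Smoc1. Likeness was the root-mean-square difference between log2 levels, each set against its own wild-type mean, and came to 0.17, 0.31, 0.38 and 0.48. Slit1 (a guidance ligand of Robo receptors) fell by 1.37 on the log2 scale. Lrrn1 (a leucine-rich repeat membrane protein) had a log2 change of -1.09 and Smoc1 (a matricellular protein) of -0.91, with limma adjusted p = 0.0798 and 0.0675. This measure favours genes with a like change between genotypes, so it adds nothing to the change itself.

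Isl1 and Isl2 encode the Islet factors. Isl1 (probe set 10412335, Entrez gene 16392) had log2 levels of 10.31, 9.98 and 10.21 in wild type and 10.43, 10.47 and 10.68 in Tbx1 null. The null arrays all lay above the wild-type arrays, by as little as 0.12 between wild type replicate 1 and Tbx1 null replicate 1. Its log2 change was 0.36 (95% confidence interval 0.13 to 0.58), 1.28-fold higher, and the limma adjusted p of 0.279 did not pass. With 1 array left out the log2 change ran from 0.27, without wild type replicate 2, to 0.43, without wild type replicate 1. Of the 14 alternatives only weighting the arrays by their quality took it past the threshold (log2 change 0.43, limma adjusted p = 0.0436).

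Cardiac muscle markers were higher on the same arrays as Isl1. Their summed linear level over 10 of 10 measured genes ran from 3424 to 4510 in wild type and from 4799 to 8660 in Tbx1 null. The highest wild-type sum was on replicate 1 and the highest null sum on replicate 3, which are also the arrays with the most Isl1 in each genotype. Actc1, the cardiac actin gene, had log2 levels of 10.05, 9.38 and 9.38 in wild type and 10.46, 10.91 and 11.62 in Tbx1 null. Of the list 0 genes passed the limma adjusted threshold (6 above 0 and 0 below at a nominal limma p under 0.05), and its median log2 change was 0.32. Summed markers of epithelium ran from 22922 to 26293 in wild type and from 25641 to 28579 in Tbx1 null. Those of pharyngeal endoderm ran from 3268 to 3724 in wild type and from 2928 to 3968 in Tbx1 null. Within each genotype, both sums also peaked on the arrays with the most Isl1, as did those of neurons and migratory crest and glia. The part of heart tissue, or of these other tissues, in the Isl1 difference was not tested.

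Isl2, known from motor and sensory neurons, had log2 levels of 9.20, 9.08 and 9.16 in wild type and 9.34, 9.30 and 9.18 in Tbx1 null. Tbx1 null replicate 3 lay within the wild-type range, so the groups overlapped. The log2 change was 0.12 (95% confidence interval -0.01 to 0.26, limma adjusted p = 0.568). The nearest measured genes on either side of Isl1, Pelo (a factor that rescues stalled ribosomes) and Parp8 (of the poly-ADP-ribose polymerase family), had log2 changes of -0.05 and -0.0069. Between them and Isl1 lie 6 and 1 annotated genes, which are not analysed here. The profiles nearest to Isl1 were of Slc35a5, Slc44a3, Gdap10 and Wfdc2, with root-mean-square differences of 0.036, 0.053, 0.058 and 0.062, and none of these 4 genes was called.

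Lhx6 and Lhx8 are the members of the crest mesenchyme, where FGF signals of the oral ectoderm are known to induce them. Lhx8 (probe set 10502961, Entrez gene 16875) had log2 levels of 8.84, 9.78 and 9.96 in wild type and 10.81, 10.67 and 9.76 in Tbx1 null. Tbx1 null replicates 1 and 2 were above every other array, wild type replicate 1 was below every other, and Tbx1 null replicate 3 fell among the wild-type arrays. The log2 change of 0.88 (SE 0.35, 95% confidence interval 0.08 to 1.69) ranked 15 by size among all genes, yet it did not pass (limma adjusted p = 0.468). Its SDs within a genotype were 0.60 and 0.57, against a median of 0.0728 over all genes, and only 9 genes had a larger SE. The log2 change was 0.54 without wild type replicate 1 and 1.21 without Tbx1 null replicate 3.

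Lhx6 (probe set 10482095, Entrez gene 16874) had log2 levels of 8.64, 8.65 and 8.67 in wild type and 9.21, 8.77 and 8.65 in Tbx1 null. Its wild-type arrays lay very close together, Tbx1 null replicate 1 stood well above them and replicate 3 was among them. The log2 change was 0.22 (95% confidence interval -0.08 to 0.52, limma adjusted p = 0.661). It was 0.06 without Tbx1 null replicate 1 and 0.34 without Tbx1 null replicate 3. In Tbx1 null the order of the arrays was the same for Lhx6 and Lhx8, replicate 1 above 2 above 3, but in wild type Lhx6 spanned only 0.03 between its arrays where Lhx8 spanned 1.12.

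Arch mesenchyme markers were read beside Lhx6 and Lhx8, which are known from the same cells. Their summed linear level over 8 of 8 measured genes ran from 28250 to 30190 in wild type and from 31449 to 32203 in Tbx1 null, without overlap. Of these 8 genes 0 passed the limma adjusted threshold (3 above 0 and 0 below at a nominal limma p under 0.05), and their median log2 change was 0.06, from 0.0059 without Tbx1 null replicate 3 to 0.11 without Tbx1 null replicate 2. Their part in the values of Lhx6 and Lhx8 was not tested.

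The lowest of the marker sums was on wild type replicate 1, where Lhx8 was lowest too. Among the wild-type arrays, 6 of the 8 markers were lowest on replicate 1, Twist1 was highest there and Prrx2 lay between. Of the 15 oral ectoderm and arch patterning genes, 8 were lowest on that array, 4 highest (Bmp4, Alx4, Dlx5 and Edn1) and 3 between. The following 3 genes, Barx1 and Dlx3 of that list and Hand2 of the arch mesenchyme markers, were chosen after their values were seen. Barx1, a homeobox gene of the proximal arch, had log2 levels of 11.90, 12.77 and 12.74 in wild type and 12.57, 12.56 and 12.34 in Tbx1 null. Hand2, a bHLH factor of the distal arch, had log2 levels of 10.45, 11.03 and 11.10 in wild type and 11.50, 11.50 and 11.26 in Tbx1 null. Dlx3 read 10.37 on wild type replicate 1 and 10.72 to 11.06 on the other 5 arrays. The part that wild type replicate 1 plays in the difference of Lhx8 can be read from its log2 change of 0.54 without that array; what sets the array apart was not tested.

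**Figure D2:**
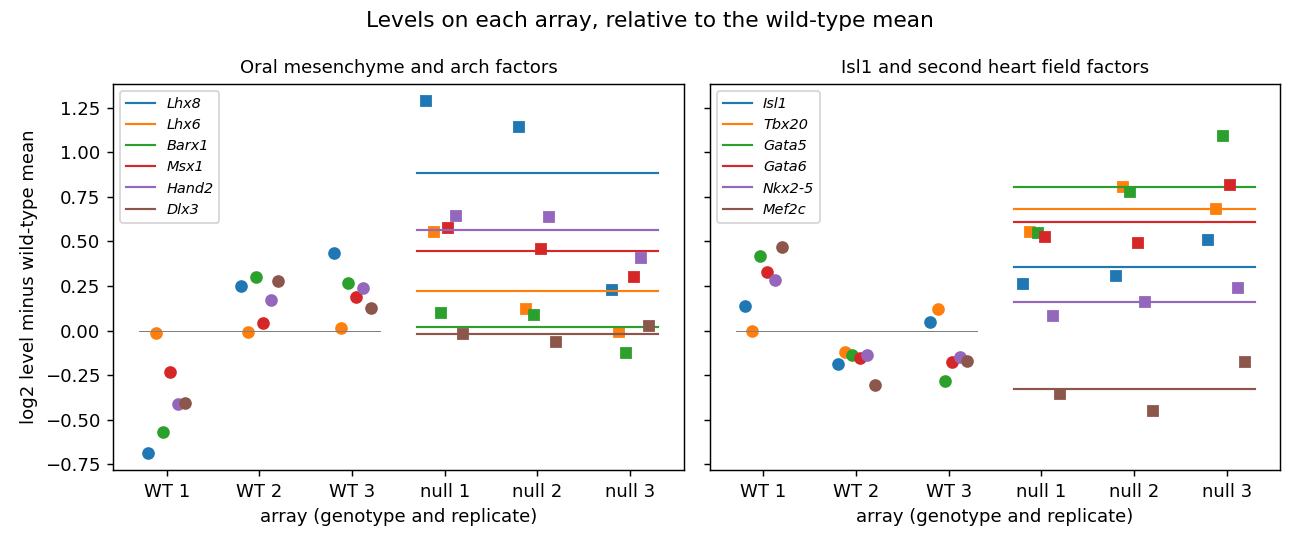
Log2 level minus the gene's own wild-type mean (vertical axis) on each of the 6 arrays; circles are wild type, squares Tbx1 null, and coloured lines the null mean. On the left, Lhx8, Barx1, Hand2 and Dlx3 are far lower on wild type replicate 1 than on the other wild-type arrays. The genes beside Lhx6 and Lhx8 there were chosen after their values were seen. Of the 15 arch patterning genes, 4 that are not plotted were highest among wild type on that array. Msx1 is lower there by less, and the wild-type arrays of Lhx6 span only 0.03. On the right, Isl1, Gata5 and Gata6 reach their highest level on Tbx1 null replicate 3. Tbx20 does so on Tbx1 null replicate 2, and Nkx2-5 and Mef2c on wild type replicate 1.

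The levels of Lhx1, Lhx5 and Lmx1b differed little between genotypes. The mean log2 levels of Lhx1 (7.29) and Lhx5 (6.67) were below every array median (7.98 to 8.04), so changes of their transcripts may be understated. Lhx1, a gene of the head organiser, kidney and neurons, had log2 levels of 7.38, 7.36 and 7.29 in wild type and 7.18, 7.23 and 7.32 in Tbx1 null, with overlapping arrays and a log2 change of -0.10 (95% confidence interval -0.22 to 0.02). Lhx5, its close relative in the forebrain and spinal cord, had log2 levels of 6.85, 6.71 and 6.47 in wild type and 6.67, 6.72 and 6.61 in Tbx1 null. The null arrays lay inside the wild-type range, and the log2 change was -0.0098 (95% confidence interval -0.22 to 0.20). It turned positive on leaving out wild type replicate 1 (0.076), replicate 2 (0.0068) or, of the null arrays, replicate 3 (0.018), and was -0.11 without wild type replicate 3 and -0.035 without Tbx1 null replicate 2. Lmx1b, a gene of limb, kidney and midbrain, had log2 levels of 8.79, 8.70 and 8.50 in wild type and 8.64, 8.50 and 8.41 in Tbx1 null. Its log2 change was -0.15 (95% confidence interval -0.35 to 0.06), and the groups overlapped. That change was -0.083 and -0.23 on leaving out wild type replicates 1 and 3, and -0.094 on leaving out Tbx1 null replicate 3.

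The remaining LIM-homeodomain genes of the mouse, Lhx3 and Lhx4 of the pituitary and motor neurons, had log2 changes of -0.03 and -0.03, with overlapping arrays. Their limma adjusted p-values were 0.933 and 0.962. With 1 array left out the log2 change ran from -0.12 to 0.02 for Lhx3 and from -0.11 to 0.05 for Lhx4, with wild type replicate 3 out at the low end of both. The high end came without wild type replicate 1 for Lhx3 and without Tbx1 null replicate 3 for Lhx4.

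**Figure D3:**
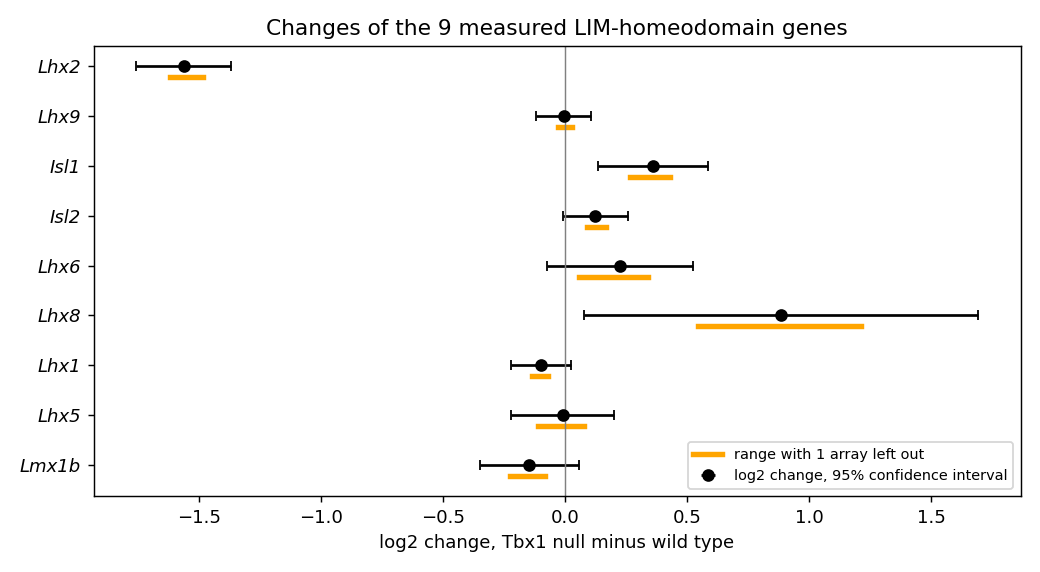
Log2 change, Tbx1 null minus wild type (horizontal axis), of each measured member: black points and bars give the change and its 95% confidence interval from limma, orange bars the range of the change with 1 array left out. The interval of Lhx2 (-1.76 to -1.37) is far from 0, those of Isl1 and Lhx8 lie above 0 without passing after adjustment over all genes, and the other 6 include 0.

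The list of LIM domain partners, which holds cofactors as well as the competing LIM-only genes and Rlim, showed no call. For comparison with this and every other list, 0.0853% of all 19938 genes were called higher and 0.0752% lower. At a nominal limma p under 0.05 the share of all genes was 9.44%, with 1097 genes higher and 786 lower. Of 10 partner genes, all measured, 0 passed the limma adjusted threshold (1 above 0 and 0 below at a nominal limma p under 0.05), with a median log2 change of -0.00018. With 1 array left out that median lay between -0.0081 and 0.017, with either sign. Ldb1, the shared cofactor, had log2 levels of 13.23, 13.22 and 13.22 in wild type and 13.24, 13.21 and 13.21 in Tbx1 null. Lmo1, a LIM-only gene, was the member of lowest p, with a log2 change of 0.20 from 7.79 ± 0.05 to 7.99 ± 0.03 (SD, n = 3 each) and arrays that did not overlap (limma adjusted p = 0.205). Lmo4, another LIM-only gene, had a log2 change of -0.09, which was -0.04 without wild type replicate 1, and Rlim, a ubiquitin ligase that acts on LIM complexes, of -0.06.

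Among the branchiomeric mesoderm and muscle factors, the genes of the tissue where Lhx2 is known, 0 of 13 measured passed the limma adjusted threshold (1 above 0 and 4 below at a nominal limma p under 0.05). The list's median log2 change was -0.12, against -0.0061 over all genes; without wild type replicate 1 it was -0.07. Myf5, a myogenic bHLH factor, had a log2 change of -0.66 (limma adjusted p = 0.0509), just outside the threshold. Ebf2, an early B-cell factor gene, had a log2 change of -0.54 and Tcf21, a bHLH factor of the muscle progenitors, of -0.53, with limma adjusted p = 0.303 and 0.324. For these 3 genes the arrays did not overlap, against 15.4% of all genes. Those of Ebf3 did not overlap either, and it went the other way (log2 change 0.32, limma adjusted p = 0.439). None of the 13 had a change as large as that of Lhx2.

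For the second heart field factors, among which Isl1 is a defining gene, 1 of 15 measured rose and 0 fell (7 above 0 and 1 below at a nominal limma p under 0.05). The one called was Tbx20, a cardiac T-box gene, with a log2 change of 0.68 (limma adjusted p = 0.0422). It did not pass with any 1 of the 6 arrays left out (limma adjusted p from 0.057 to 0.17), so the count was then 0. Gata5 had a log2 change of 0.80, Gata6 of 0.61 and Hand1 of 0.50, with limma adjusted p = 0.221, 0.212 and 0.157. Fgf10, a growth factor of this field, had a log2 change of -0.22. The list's median log2 change was 0.17, which became 0.09 with wild type replicate 3 left out and 0.29 with replicate 1 left out. The cardiac muscle markers given beside Isl1 moved the same way, and their part here was not tested.

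Of the oral ectoderm signals and arch patterning factors, the genes around Lhx6 and Lhx8, 1 of 15 measured rose and 0 fell (5 above 0 and 1 below at a nominal limma p under 0.05). The one called was Msx2, a homeobox gene induced by BMP, with a log2 change of 0.39 (limma adjusted p = 0.0422). It too did not pass with any 1 array left out (limma adjusted p from 0.0865 to 0.205). Bmp4 had a log2 change of 0.32 and Pitx1, a homeobox gene of the jaw ectoderm and mesenchyme, of 0.33, with limma adjusted p = 0.0577 and 0.0962. Fgf8, the ectodermal signal known to induce Lhx6 and Lhx8, had log2 levels of 10.12, 10.01 and 10.17 in wild type and 10.09, 10.08 and 10.08 in Tbx1 null, with full overlap. The list's median log2 change was 0.03; it was 0.09 without wild type replicate 2, 0.06 without Tbx1 null replicate 2, 0.05 without wild type replicate 1 and 0.07 without Tbx1 null replicate 3.

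Neural partners, the factors found with LIM-homeodomain genes in neurons and the roof plate, gave 0 calls among 14 measured by limma (0 above 0 and 2 below at a nominal limma p under 0.05). Pax6, a neural progenitor factor, had a log2 change of -0.22, Neurod1, a neuronal bHLH factor, of -0.61 and Neurog1, which specifies sensory neurons, of -0.22. Neurod1 read 7.36 on wild type replicate 1 and 6.07 on Tbx1 null replicate 2, its extremes, and its genotypes overlapped. Without wild type replicate 1 the log2 change of Neurod1 was -0.39 and that of Neurog1 -0.08, and without Tbx1 null replicate 2 that of Neurog1 was -0.14. The list's median of -0.04 became -0.0022 with wild type replicate 1 left out and -0.10 with replicate 3 left out, and -0.02 with Tbx1 null replicate 3 left out. Summed neuron markers over 10 of 10 genes ran from 1738 to 2388 in wild type and from 1575 to 1779 in Tbx1 null; their part in the values of Lhx1, Lhx5, Isl2 and Lmx1b was not tested.

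**Figure D4:**
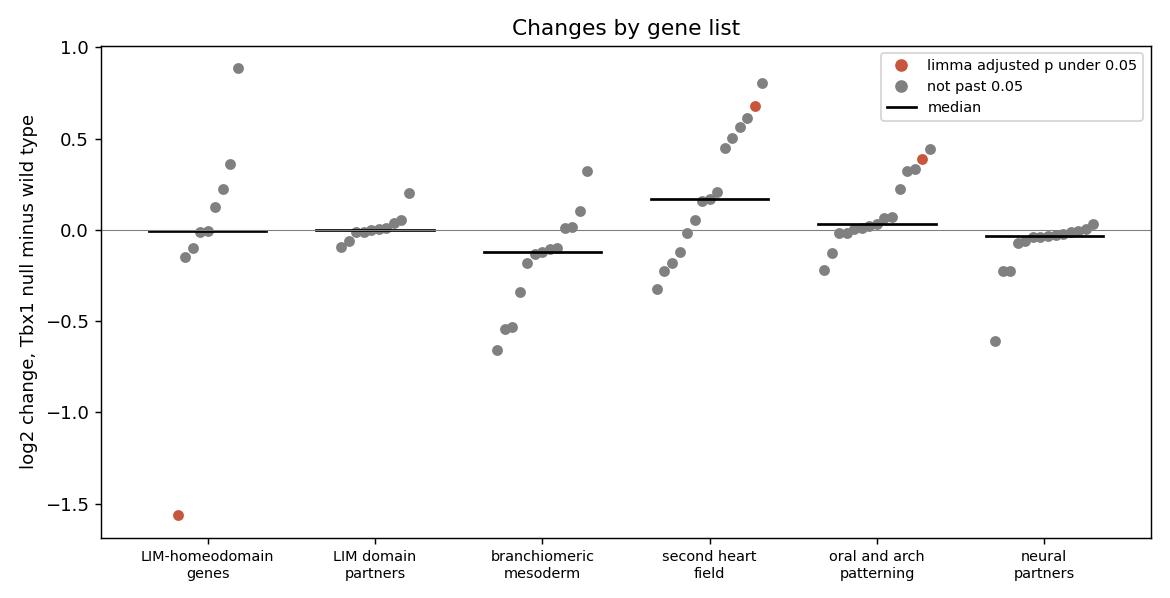
Log2 change, Tbx1 null minus wild type (vertical axis), of each measured gene by list, ordered within a list by its value; red points passed a limma adjusted p of 0.05 over all genes and black lines are medians. Lhx2 lies at -1.56, apart from the other lists' genes, which run from -0.66 to 0.80, and Tbx20 and Msx2 are the other genes past the threshold.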

How the data were processed

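Affymetrix Mouse Gene ST arrays were used for 6 samples. The deposited log2 values per probe set were made by the authors with RMA, and the submitters' processing notes name Affymetrix Expression Console 1.1; RMA draws array distributions together, so a shift shared by most genes cannot be seen. Summary level and genome build: not given in the sources used here; and no background probes were at hand, so dim probe sets may understate changes. No column of another sample was in the table.

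The table has 35556 probe sets: 21789 with a single gene symbol, 1621 with several symbols and 12146 without a name. Genes were represented by the probe set with the highest mean, and limma 3.58.1 (R 4.3.3; lmFit, eBayes, two-sided, all arrays, no covariate) compared the genotypes, with Benjamini-Hochberg adjustment over 19938 genes; the fit was tested on simulated data. The members and lists were chosen with earlier results of these data known. Genes named are the members, Tbx1, neighbours and nearest profiles of Lhx2, Isl1 and Lhx9, and, per list, those called and the 3 of lowest p; any other gene named or plotted was chosen after its values were seen. Marker lists were for neurons, neural tube progenitors, migratory crest and glia, arch mesenchyme, cardiac muscle, epithelium, pharyngeal endoderm, endothelium, primitive erythroid cells and macrophages. Alternatives were a replicate block, leaving out each array, quantile normalisation again, median centring, array weights, a filter on low genes, an intensity trend with robust estimation in eBayes, averaging the probe sets of a gene, and testing every probe set.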

Additional observations from a re-analysis of the deposited data

How the results depend on the processing

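Lhx2 kept its direction and passed the limma threshold under all 14 alternatives, with a log2 change from -1.65 to -1.48 and an adjusted p from 2.76e-05 to 0.02. The count of members called was 1 in 13 alternatives and 2 with array weights, where Isl1 joined. Of the members not called, Isl1, Isl2, Lhx1, Lhx6, Lhx8 and Lmx1b kept their direction in all of theirs. With 1 array left out the change of Lhx5 ran from -0.11 to 0.076, above 0 for 3 of 6 arrays, and that of Lhx9 from -0.030 to 0.028, above 0 for 2 of 6; the cause was not tested. The count of all genes called moved from 32 to 96 with an intensity trend and robust estimation, 334 with array weights and 4 with every probe set tested, and ran from 3 to 20 with 1 array left out.

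The replicate block gave 6 genes, Lhx2 among them with an adjusted p of 0.02. Deviations of arrays with the same number correlated at -0.045, 0.26 and 0.15, and those with different numbers at -0.37 to 0.25. The labels do not say that the numbers pair the arrays, so the main fit had no block.

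The alternatives for the lists were added after seeing the data. The count of LIM domain partners called became 1 with array weights. That of the branchiomeric list became 1 after quantile normalisation again, after centring and with trend and robust estimation, and 2 with array weights. The second heart field count became 0 with the replicate block, after quantile normalisation again and with every probe set tested, 4 with array weights, and 0 to 0 with 1 array left out. For the arch patterning list it became 0 with the replicate block and every probe set tested, 3 with trend and robust estimation, 4 with array weights, and 0 to 0 with 1 array left out. With 3 arrays per genotype, their number limits the precision.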

Other observations

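Lhx8 varied between arrays of a genotype as few genes did, and the genes closest to it over the 6 arrays were read after its values were seen. The root-mean-square differences of log2 levels, each set against its own wild-type mean, were 0.21 for Foxf1, 0.25 for Gpr50, 0.28 for Magel2 and 0.29 for Gdf6. Foxf1, a forkhead factor of mesenchyme under Hedgehog control, had log2 levels of 10.34, 11.38 and 11.50 in wild type and 11.94, 11.94 and 11.40 in Tbx1 null. Gpr50, an orphan receptor gene, read 9.92, 11.59 and 11.72 in wild type and 12.37, 12.30 and 11.40 in Tbx1 null, as log2 levels. Gdf6, a growth factor gene of the BMP family, had log2 levels of 7.88, 8.59 and 8.51 in wild type and 9.18, 9.05 and 8.73 in Tbx1 null. For all 3 of these, as for Lhx8, wild type replicate 1 was the lowest array of the 6 and Tbx1 null replicate 3 the lowest of its genotype. The measure picks genes for likeness on these same arrays, so this shared order follows from the choice and adds nothing to the values of Lhx8. None was called by limma. The genes nearest to Lhx9, whose level hardly moved, were Nfatc2, H4c14, Actn1 and Ptov1, with differences of 0.012, 0.014, 0.015 and 0.016.

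The remaining marker lists gave 0 calls in the main limma fit apart from Ngfr in migratory crest and glia, which fell (log2 change -0.70, limma adjusted p = 0.0142). That call was lost with the replicate block, with every probe set tested, and on leaving out wild type replicate 2 or any 1 of the 3 null arrays (limma adjusted p from 0.0601 to 0.133). Primitive erythroid markers had 7 of 7 measured members below 0 and a median log2 change of -0.30 (7 lower at an unadjusted p under 0.05). Of these, 4 were called lower with trend and robust estimation, 4 with array weights, 2 after centring and 1 after quantile normalisation again. With array weights 2 cardiac muscle markers were called higher. For arch mesenchyme, 1 marker was called higher with array weights and 1 with trend and robust estimation. Epithelium, neural tube progenitors, pharyngeal endoderm, endothelium and macrophages had 2, 1, 1, 0 and 0 members higher and 0, 1, 1, 0 and 1 lower at a nominal p under 0.05.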
